A study of Mus musculus with 15 samples.

Results

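Gene expression was compared between microvessels from the tumour-bearing brain region of mice given triple therapy and microvessels from the brains of sham-operated healthy mice. Triple therapy was aflibercept, a soluble decoy receptor that captures VEGF ligands, with AMG386, a peptibody that neutralises angiopoietins, and an antibody against PD-1, the inhibitory receptor of T cells. Of the 27174 genes measured, 19668 had a normalised count of at least 10 in at least 3 of the 15 libraries of the study and were tested, and 7506 were not. Each group had 3 libraries, and each library was a pool of 3 mice.

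All mice were adult wild-type BL6/57 animals. All but the sham-operated ones carried a glioblastoma in the brain, and microvessels of the tumour-bearing mice were taken 21 days after transplantation. The remaining libraries, 3 per group, were dual therapy (tumour region, aflibercept and AMG386 without the PD-1 antibody) and, from animals that received control IgG, untreated tumour (tumour region) and contralateral (the opposite side of the brain). The tumour cell line, the doses, and the brain region and day of collection of the sham vessels are not given in the sources used here. Triple therapy and sham libraries differ in tumour and in treatment and may differ in brain region and in time after surgery. These cannot be told apart in this comparison. Mice were pooled, so p-values measure the spread between pools and the spread between single mice is not seen.

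Endothelial cells of brain vessels form the blood-brain barrier. Claudin-based tight junctions close the gaps between them, transport through vesicles is kept low, dedicated carriers bring in glucose and amino acids, and efflux pumps export drugs. Wnt/beta-catenin signalling maintains this state. VEGF acts mainly through the receptor VEGFR2, encoded by Kdr, and angiopoietin-1 stabilises vessels through the receptor Tie2, encoded by Tek, while angiopoietin-2 opposes it in many settings. In tumours, vessels sprout, lose barrier properties and regulate which leukocytes enter.

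The deposited values are named as normalised counts and are whole numbers, so they were taken to be rounded. Depth estimated from the steps between low values was 17 M and 18.3 M reads (M, mega) in triple therapy replicates 2 and 3, and ran from 6.4 M to 14.7 M reads in sham libraries. The low values of triple therapy replicate 1 showed no step pattern, so its depth is uncertain. Replicates correlated at 0.975 to 0.977 in triple therapy and at 0.972 to 0.975 in sham (log2 values, across genes). Mitochondrial ribosomal RNA took 9.55% to 12.2% of the total in triple therapy and 11.9% to 12.4% in sham. The endothelial marker Pecam1 had 9642, 8840 and 10701 normalised counts in triple therapy, against 10129, 9594 and 9730 in sham, so this marker of the labelled tissue was present in both groups. On the first principal component of all 15 libraries (47.4% of the variance), triple therapy lay at -14.41 to 2.47, untreated tumour at -116.89 to -102.61 and sham at 75.82 to 88.99.

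Triple therapy vessels differed from sham vessels in 1913 of the 19668 genes (9.73%) at an adjusted p below 0.05 in limma, with Benjamini-Hochberg adjustment over the whole set of genes. Of these, 1080 rose (5.49% of genes tested) and 833 fell (4.24%). The split depended on the fit: 1497 rose and 1700 fell with only the 6 libraries compared, 1639 and 1585 with quality weights, 912 and 367 without triple therapy replicate 3, 852 and 470 without sham replicate 2, and 775 and 328 without sham replicate 3. The increases were larger: 506 of the genes that rose had a log2 difference of at least 2, while 22 of those that fell did so in the other direction. The median size of a called difference was 1.88 for genes that rose and 0.99 for genes that fell. Of the 1518 genes tested with a normalised count under 10 in every sham library, 333 rose, and of the 134 listed at 0 in all 3 of them 71 rose. Such genes passed the filter through other groups and could hardly be called lower, which also holds for list members near 0 in sham. In all, 14.6% of genes tested had every triple therapy library above every sham library, and 15.9% had every one below. Untreated tumour differed from sham in 46.6% of genes and dual therapy in 18.5% (8.8% higher and 9.71% lower), comparisons that share the sham libraries. Counts of list members called against sham are to be read beside the 5.49% of all genes that rose and the 4.24% that fell.

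**Figure D1:**
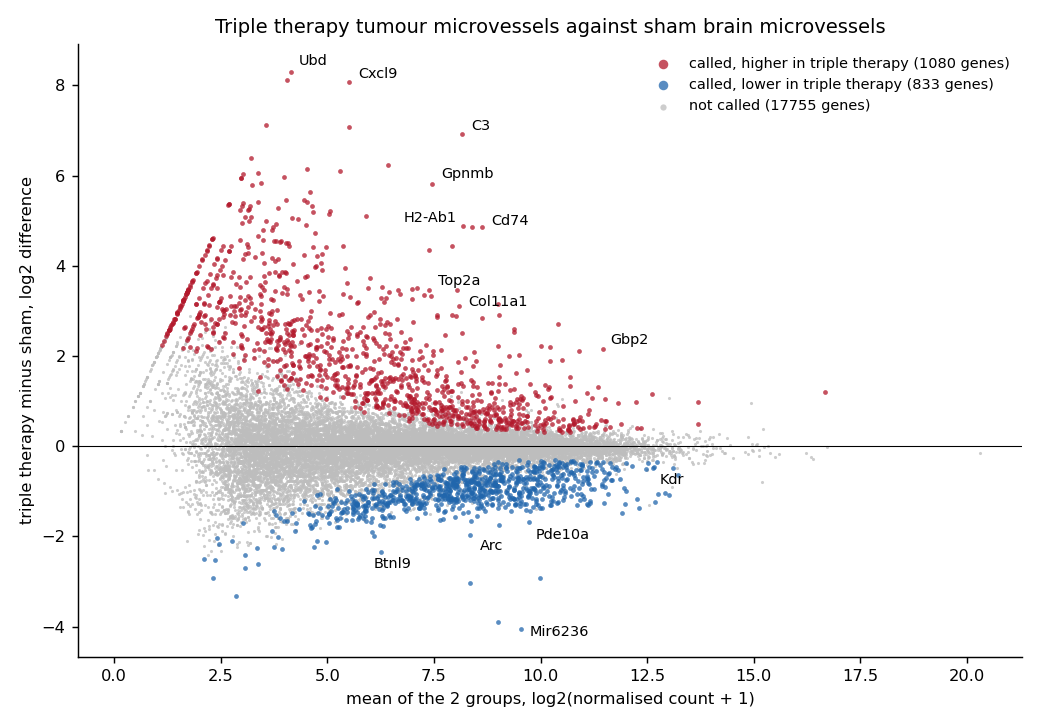
Log2 difference of each of 19668 genes between triple therapy and sham (vertical axis) against the mean of both groups on the log2(normalised count + 1) scale (horizontal axis); red points rose (1080), blue points fell (833) and grey points were not called. The largest differences are upward, with Ubd and Cxcl9 at the top, and interferon, antigen presentation, complement and macrophage genes are among the labelled ones.

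Many of the genes with the largest increases are known from inflammation and immunity. Among called genes with an established symbol that averaged at least 50 in the higher group and whose groups did not overlap, the increases were led by Ubd, an interferon-induced ubiquitin-like protein, with 373, 690 and 120 in triple therapy and 0 in every sham library. Mmp3, a matrix metalloprotease, had 267, 257 and 317 in triple therapy and was also listed at 0 in all 3 sham libraries. Cxcl9, a chemokine that draws T cells, had 932, 1507 and 297 in triple therapy, against 6, 2 and 0 in sham (log2 difference 8.08 ± 0.73 SE, adjusted p = 9.95e-07). The largest decreases under the same conditions were those of Mir6236 (-4.05 ± 0.97, adjusted p = 0.0101) and Lars2, a mitochondrial leucyl-tRNA synthetase gene (-2.93 ± 0.75, adjusted p = 0.0162), both with a wide spread among the sham libraries. Reads of ribosomal RNA-like sequence may be counted to both, and their part was not tested. Btnl9, a butyrophilin-like gene expressed in endothelium, came next with 32, 37 and 31 in triple therapy, against 210, 197 and 123 in sham (-2.34 ± 0.37, adjusted p = 3.54e-04). After it stood Drd2, a dopamine receptor gene of neurons, with 10, 17 and 16 in triple therapy, against 60, 58 and 78 in sham (-2.13 ± 0.37, adjusted p = 7.72e-04).

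**Figure D2:**
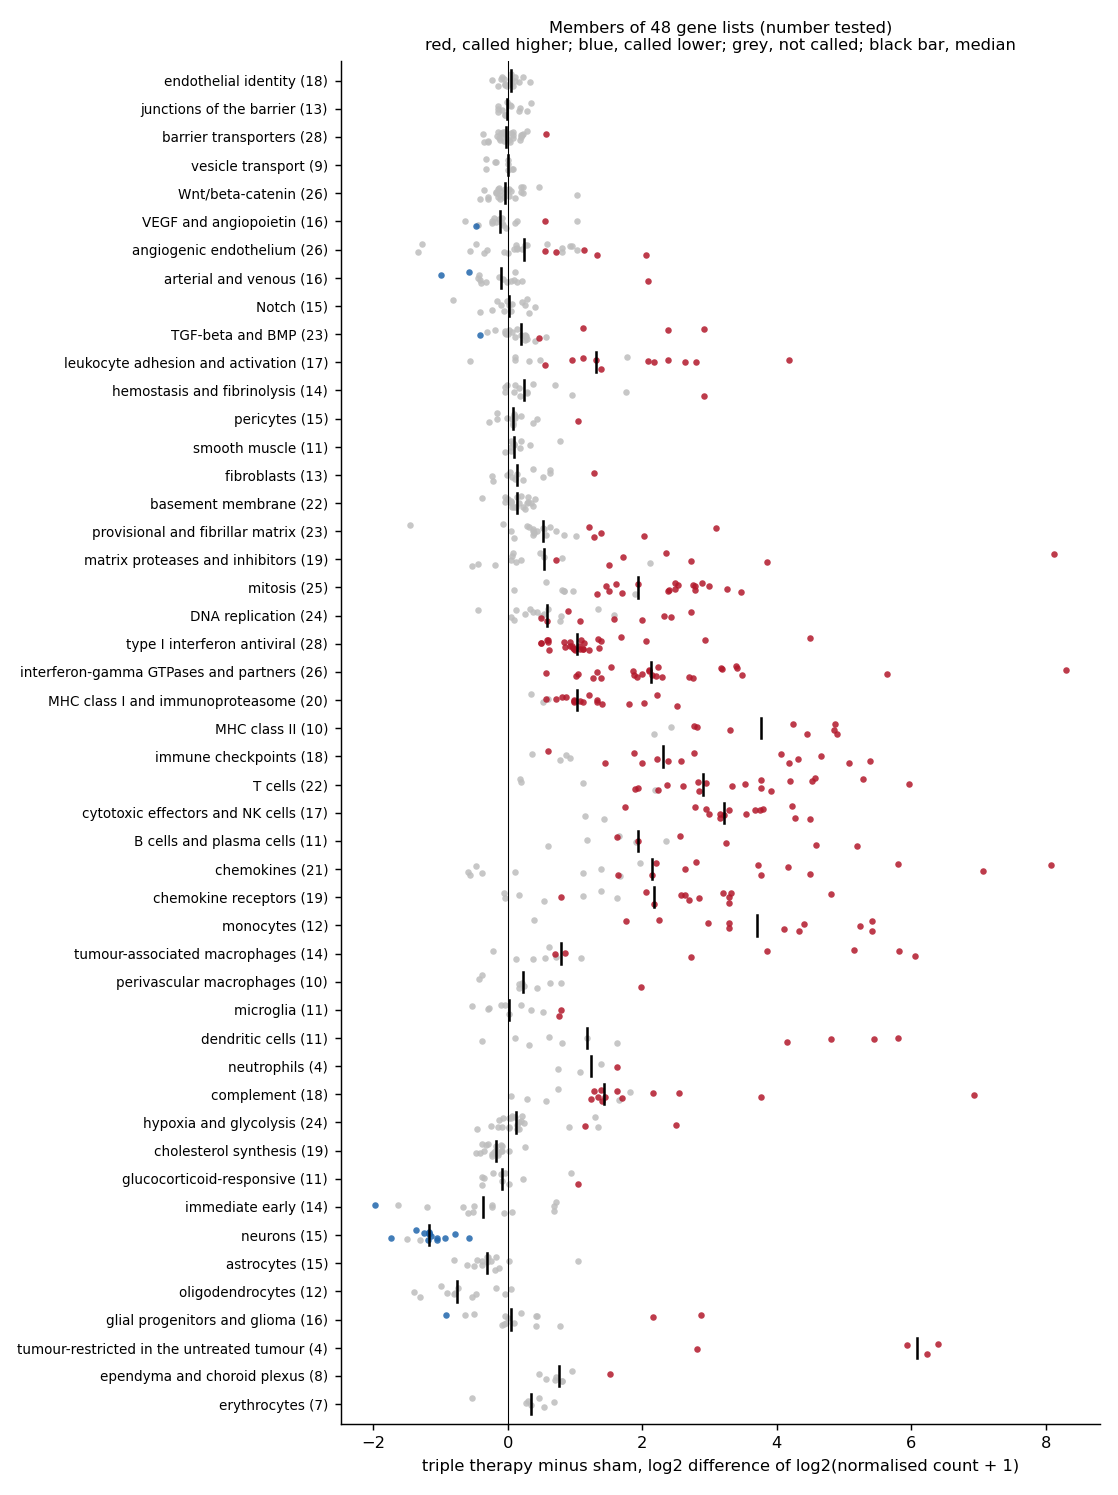
Log2 difference between triple therapy and sham (horizontal axis) of the members of 48 gene lists (rows, with the number tested); red points rose, blue points fell, grey points were not called, and the black bar is the list's median. The medians of endothelial identity and junctions lie at 0.05 and -0.02, that of leukocyte adhesion at 1.31, those of monocytes and T cells at 3.70 and 2.90, that of microglia at 0.02 and that of neurons at -1.18.

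Genes of the endothelial cell and of its barrier had values close to sham. Of 18 genes of endothelial identity, of 13 of the junctions, and of 9 of vesicle transport, 0 were called in either direction by limma, and 0 had an unadjusted p below 0.05. Their median log2 differences were 0.05, -0.02 and -0.00. For all 18 identity genes the 95% interval of the log2 difference lay within 1 in either direction, between -0.60 and 0.68, as it did for 12 of the 13 junction genes. For all genes tested that share was 55.3%. Those reach down to low values, interval width varies with a gene's level, and no set of genes of equal level was compared. A gene that is not called is not thereby shown to be equal in both groups, and the intervals give the range of differences the data allow. In bulk samples, fewer cells of a type and less RNA per cell cannot be told apart.

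Cldn5, the main claudin of the brain endothelium, had 5623, 4886 and 6310 in triple therapy, against 4989, 5329 and 5839 in sham, with a 95% interval of -0.25 to 0.36 for the log2 difference. The glucose transporter gene Slc2a1 (ENSMUSG00000028645, GRCm38 chromosome 4, 119108711 to 119137983) had 32060, 33302 and 38899 in triple therapy, against 38709, 35613 and 28324 in sham, with an interval of -0.34 to 0.40. For the efflux pump gene Abcb1a the values were 16720, 15281 and 20361 in triple therapy, against 17561, 18186 and 18175 in sham (interval -0.36 to 0.25). In all 3 genes the triple therapy and sham libraries overlapped. Mfsd2a, a lipid transporter that restrains vesicle transport, averaged 949.3 ± 267.1 in triple therapy and 891.3 ± 23.5 in sham (SD, n = 3 each), with a spread several times wider in triple therapy. Plvap, a marker of leaky fenestrated endothelium, had 358, 320 and 438 in triple therapy, against 442, 599 and 377 in sham, and was not called (interval -0.94 to 0.28).

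Of 28 barrier transporters, 1 rose and 0 fell. It was Slco2b1, an organic anion transporter, with 3453, 3889 and 3405 in triple therapy, against 2364, 2473 and 2443 in sham (0.56 ± 0.11, adjusted p = 0.0023). All 3 triple therapy libraries exceeded all sham libraries. Against untreated tumour, 18 of the 28 transporters rose (17.2% of all genes rose and 15% fell in that comparison) and 0 fell. Slc22a8, another organic anion transporter, had 1282, 1221 and 1803 in triple therapy, against 620, 717 and 713 in untreated tumour (1.05, adjusted p = 3.86e-05). That comparison depends on scaling. Over all genes 3390 rose and 2950 fell against untreated tumour, and when every library was shifted to an equal mean of the endothelial identity genes, 1684 rose and 4123 fell, with a median log2 difference over all genes of -0.26 in place of -0.02. With this endothelial shift, 8 of the 28 transporters rose and 2 fell.

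Wnt/beta-catenin genes also had values close to sham. Of 26 members, 0 were called against sham in limma (median -0.05; 2 at an unadjusted p below 0.05), and 23 had intervals within 1 log2 unit in either direction. Against untreated tumour 17 rose and 0 fell, 9 and 0 with the endothelial shift. Axin2, a direct target of the pathway, had 970, 811 and 1009 in triple therapy and 474, 544 and 423 in untreated tumour, with 834, 795 and 753 in sham. Notum, which encodes a secreted Wnt deacylase, had 63, 66 and 83 in triple therapy, 24, 39 and 26 in untreated tumour and 74, 82 and 72 in sham. Rnf43, a ubiquitin ligase that limits Wnt receptors, had 75, 62 and 71 in triple therapy and 41, 20 and 45 in sham, without passing the test (1.03, adjusted p = 0.0575).

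**Figure D3:**
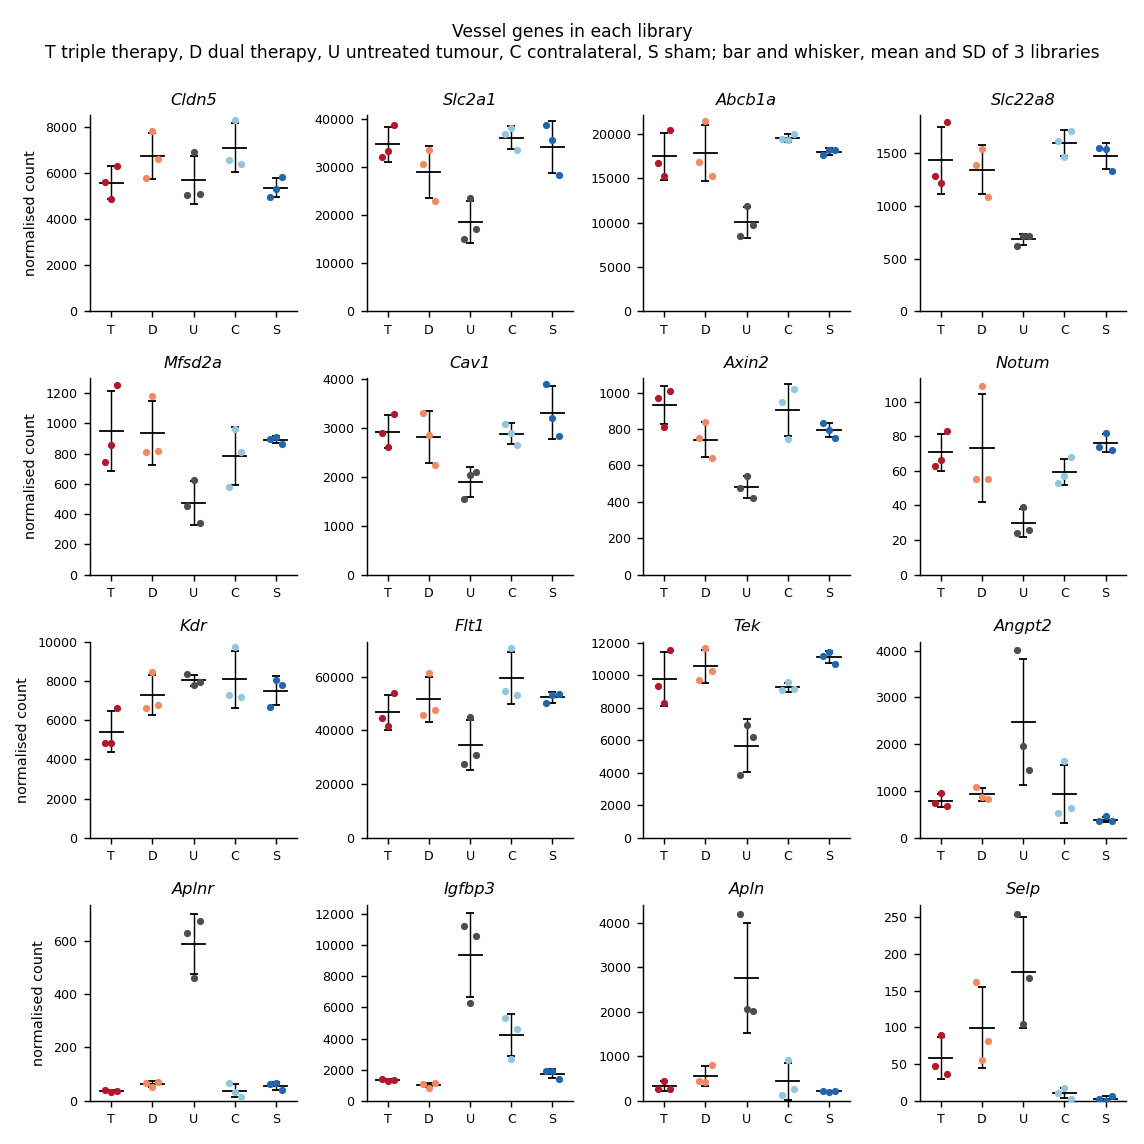
Normalised counts (vertical axes) of 16 vessel genes in each of the 15 libraries, by group (T triple therapy, D dual therapy, U untreated tumour, C contralateral, S sham), with the mean (bar) and SD (whisker) of 3 libraries. Barrier and Wnt genes lie at similar heights in T and S, the sprouting genes Aplnr, Igfbp3 and Apln stand high in U, and Selp is higher in T than in S.

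Around the targets of aflibercept and AMG386, 1 gene rose and 1 fell of 16 in the VEGF and angiopoietin list. That is 6.2% in each direction, near the 5.49% and 4.24% of all genes tested. Kdr (ENSMUSG00000062960, chromosome 5, 75932827 to 75978458) had 4817, 4828 and 6614 in triple therapy, against 6687, 8061 and 7780 in sham (-0.48 ± 0.14, adjusted p = 0.0385). The highest triple therapy library lay just below the lowest sham library. Placental growth factor, a ligand that aflibercept also captures, is encoded by Pgf (ENSMUSG00000004791, chromosome 12, 85166635 to 85177790), which had 414, 524 and 430 in triple therapy, against 313, 307 and 306 in sham (0.55 ± 0.16, adjusted p = 0.0338). Both calls are weak: Kdr lost its call under 6 of 17 alternative settings (adjusted p up to 0.172) and Pgf under 8 (up to 0.177), 6 of which each left out 1 library. Kdr was also lower than in untreated tumour, which had 8352, 7819 and 7943 (-0.58, adjusted p = 0.00447), a call that held under all 17 alternatives.

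The other receptors and ligands did not pass the test against sham. Flt1, which encodes VEGFR1, had 44534, 41668 and 53949 in triple therapy, against 50085, 53406 and 53526 in sham. Tek averaged 9746.7 ± 1659.3 in triple therapy and 11121.3 ± 375.1 in sham (SD, n = 3 each), and Angpt1 averaged 488.7 ± 34.6 in triple therapy and 497.3 ± 18.6 in sham. The 95% intervals of these log2 differences were -0.56 to 0.22 for Flt1, -0.55 to 0.15 for Tek and -0.56 to 0.50 for Angpt1. Vegfa, the main VEGF ligand, had 249, 274 and 211 in triple therapy, against 255, 218 and 340 in sham.

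Angpt2 (ENSMUSG00000031465, chromosome 8, 18690263 to 18741562) lay between untreated tumour and sham. It had 743, 956 and 681 in triple therapy, 4009, 1971 and 1444 in untreated tumour and 348, 454 and 355 in sham. All triple therapy libraries were above all sham libraries, but the difference missed the threshold (1.03 ± 0.34, adjusted p = 0.0666) and passed it under 4 of 17 alternatives. The decrease against untreated tumour passed the test (-1.52, adjusted p = 0.00242). Angpt2 lies inside Mcph1 on the other strand, and the strand setting of the counting is not given, so reads of both genes cannot be told apart.

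Of 26 genes of angiogenic endothelium, which mark tip cells and sprouting vessels, 5 rose against sham and 0 fell (median 0.23), while 18 fell against untreated tumour and 0 rose. Aplnr (ENSMUSG00000044338, chromosome 2, 85136225 to 85139923), the apelin receptor gene, had 41, 32 and 37 in triple therapy, 628, 460 and 674 in untreated tumour and 62, 67 and 39 in sham. Its ligand gene Apln had 276, 454 and 268 in triple therapy, 4192, 2061 and 2026 in untreated tumour and 227, 201 and 220 in sham. Igfbp3, which encodes a binding protein of insulin-like growth factors, had 1409, 1273 and 1357 in triple therapy, 11223, 6285 and 10560 in untreated tumour and 1903, 1933 and 1395 in sham. None of the 3 was called against sham, and for Apln the interval still ran from -0.41 to 1.57.

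The 5 that rose were Cxcr4, Pfkfb3, Marcksl1, Mmp14 and Pgf. Cxcr4, a chemokine receptor that leukocytes also carry, had 131, 107 and 124 in triple therapy, against 27, 24 and 35 in sham (2.05 ± 0.26, adjusted p = 3.46e-05). Pfkfb3, a driver of glycolysis in sprouting endothelium, had 1447, 1889 and 1022 in triple therapy, against 633, 629 and 672 in sham (1.13 ± 0.19, adjusted p = 6.09e-04). The count dropped to 3 without triple therapy replicate 1 and without sham replicate 3.

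Of 17 genes of leukocyte adhesion and endothelial activation 11 rose and 0 fell, with a median of 1.31. Against sham, 12 rose and 2 fell in untreated tumour (median 2.04), and 13 rose and 1 fell in dual therapy (median 1.72). The list's mean log2 difference from sham was 0.96 to 1.80 in triple therapy libraries. In contralateral libraries it was 0.55 to 1.49, so the rise was not particular to tumour vessels. Selp, which encodes P-selectin on activated endothelium and platelets, had 47, 90 and 37 in triple therapy, against 3, 0 and 6 in sham (4.18 ± 0.65, adjusted p = 3.02e-04). Ackr1, a chemokine-presenting receptor of venules, had 224, 325 and 71 in triple therapy, against 31, 39 and 16 in sham (2.64 ± 0.46, adjusted p = 7.71e-04). Icam1, a ligand for leukocyte integrins, averaged 675.3 ± 151 in triple therapy and 349 ± 76.4 in sham (SD, n = 3 each; 0.95, adjusted p = 0.00341). Vcam1 did not pass (0.31, adjusted p = 0.414), and neither did Cx3cl1, the gene of the chemokine fractalkine, which was lower in all 3 libraries (-0.56, adjusted p = 0.0536).

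Arterial and venous genes gave 1 increase and 2 decreases of 16 (6.2% and 12.5%, against 5.49% and 4.24% of all genes tested). Lcn2, an iron-binding protein of inflamed vessels and glia, rose (2.08 ± 0.44, adjusted p = 0.00422). Gkn3, an arterial endothelial marker in mouse brain, had 639, 453 and 801 in triple therapy, against 1391, 1120 and 1161 in sham (-0.99 ± 0.21, adjusted p = 0.00411), and the groups did not overlap. The other, Stmn2, is also a neuronal gene (-0.58, adjusted p = 0.0379), and leaving out any 1 library left 1 decrease in the list. In the Notch list 0 of 15 were called in limma, against 3 at an unadjusted p below 0.05. Of 23 TGF-beta and BMP genes, 4 rose and 1 fell. Among them Lrg1, an angiogenic modulator of TGF-beta signalling that inflammation induces, had 189, 315 and 135 in triple therapy, against 38, 47 and 30 in sham (2.38 ± 0.39, adjusted p = 4.70e-04), and without sham replicate 3 the list's increases numbered 2.

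Mural cells wrap the endothelium. Of 15 pericyte genes 1 rose, Ifitm1 (1.05, adjusted p = 0.0354), an interferon-induced gene whose call was lost under 8 of 17 alternatives, and 0 of 11 smooth muscle genes were called in limma or had an unadjusted p below 0.05. Rgs5, a pericyte marker, averaged 40928.3 ± 5643 in triple therapy and 45368.3 ± 589.2 in sham (SD, n = 3 each), and Acta2, smooth muscle actin, 14377.7 ± 533.2 in triple therapy and 12595.3 ± 844.5 in sham. Against untreated tumour, 13 of 15 pericyte genes and 9 of 11 smooth muscle genes rose, and 11 and 7 did so with the endothelial shift.

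Of 23 genes of provisional and fibrillar matrix 5 rose and 0 fell. Of 22 basement membrane genes 0 were called in limma, against 2 at an unadjusted p below 0.05, and all 22 intervals lay within 1 log2 unit in either direction. With only the 6 libraries compared, 16 and 5 genes of these lists rose, and the difference between the lists was not tested. Col11a1, a fibrillar collagen gene, had 643, 1014 and 792 in triple therapy, against 108, 89 and 82 in sham (3.10 ± 0.23, adjusted p = 1.47e-07). Tnc, which encodes tenascin-C, a glycoprotein of remodelling tissue, had 303, 523 and 301 in triple therapy, against 75, 91 and 99 in sham (2.03 ± 0.38, adjusted p = 0.00158). Col3a1 had 1762, 1785 and 1860 in triple therapy, against 724, 826 and 682 in sham (1.28 ± 0.18, adjusted p = 1.18e-04). Of these, Col11a1 and Tnc were lower than in untreated tumour (-2.38 and -1.83, adjusted p = 1.55e-06 and 0.0013).

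Of 19 matrix proteases and inhibitors 7 rose and 0 fell. Mmp2, a gelatinase, had 228, 236 and 223 in triple therapy, against 63, 95 and 55 in sham (1.71 ± 0.32, adjusted p = 0.0017). Mmp13, a collagenase, had 40, 57 and 43 in triple therapy, against 6, 0 and 4 in sham (3.85 ± 0.74, adjusted p = 0.00205). Timp3, which encodes a metalloprotease inhibitor, averaged 35311 ± 1913.2 in triple therapy and 34260.7 ± 5893.3 in sham (SD, n = 3 each) and was not called. Timp1 rose (2.35, adjusted p = 0.0113, lost without triple therapy replicate 2 or sham replicate 2), but it overlaps Syn1 on the other strand, and Syn1 fell.

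Interferon-induced genes rose throughout their lists. Type I and type II interferons switch on antiviral genes and GTPases that attack intracellular pathogens. All 28 genes of the type I antiviral list rose, with log2 differences from 0.49 to 4.50 (median 1.03), and all 26 of the interferon-gamma list rose, the smallest by 0.56 (median 2.13), against 5.49% of all genes tested. The lists partly hold genes that both interferons induce, so the counts do not assign a type. Under all alternatives at least 26 of the 28 and 25 of the 26 were called. The rise was not particular to triple therapy. In untreated tumour 27 of the 28 and all 26 rose against sham (medians 1.20 and 2.58), where 23.3% of all genes rose. In dual therapy all 28 and all 26 rose against sham (medians 1.33 and 2.57), where 8.8% of all genes rose.

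To show the regulatory sequence beside the values, the 250 bases before the annotated start are printed for genes of these lists from RefSeq (GRCm38.p6), 5′ to 3′ on the gene's strand. Capitals mark matches, on either strand, to GAAA followed by any 2 bases and GAAA again, the core of the element bound by interferon-regulated factors. Promoters were found by symbol for 12301 of the 19668 tested genes. The motif was in 417 of them (3.4%), in 9 of 20 promoters of the type I list (45.0%) and in 10 of 14 of the interferon-gamma list (71.4%). The printed promoters were chosen because they hold the motif, and a match describes letters, not binding.
Ifit3 (chr19:34583279-34583528, plus strand): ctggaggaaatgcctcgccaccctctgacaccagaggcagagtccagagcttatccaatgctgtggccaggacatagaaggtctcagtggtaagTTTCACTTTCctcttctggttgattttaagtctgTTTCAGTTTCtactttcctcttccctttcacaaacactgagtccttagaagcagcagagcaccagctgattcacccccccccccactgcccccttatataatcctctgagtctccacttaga
Cxcl10 (chr5:92348890-92349139, minus strand): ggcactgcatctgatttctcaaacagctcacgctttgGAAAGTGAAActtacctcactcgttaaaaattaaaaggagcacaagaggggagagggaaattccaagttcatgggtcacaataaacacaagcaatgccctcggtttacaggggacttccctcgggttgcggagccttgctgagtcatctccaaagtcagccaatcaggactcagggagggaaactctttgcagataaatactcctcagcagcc
Gbp2 (chr3:142620413-142620662, plus strand): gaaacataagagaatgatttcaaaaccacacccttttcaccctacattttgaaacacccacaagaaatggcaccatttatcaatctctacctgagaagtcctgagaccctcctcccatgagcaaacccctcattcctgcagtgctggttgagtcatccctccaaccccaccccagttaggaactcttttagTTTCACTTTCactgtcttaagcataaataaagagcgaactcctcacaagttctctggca
Irgm1 (chr11:48871421-48871670, minus strand): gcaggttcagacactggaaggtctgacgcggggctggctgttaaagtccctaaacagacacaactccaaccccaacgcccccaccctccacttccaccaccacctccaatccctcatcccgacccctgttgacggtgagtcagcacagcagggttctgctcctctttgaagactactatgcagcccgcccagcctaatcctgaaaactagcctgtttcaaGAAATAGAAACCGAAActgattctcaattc
In Ifit3 the matches start 156 and 122 bases before the start, in Cxcl10 213 and in Gbp2 59 bases before it, and in Irgm1 a pair of overlapping matches lies 30 and 24 bases before it. These are RefSeq starts, which can differ from the gene coordinates given elsewhere in the text. The Gbp2 match lies inside the span given for that gene below.

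Ifit3, which encodes an antiviral RNA-binding family member, had 844, 1017 and 704 in triple therapy, against 348, 288 and 343 in sham (1.38 ± 0.17, adjusted p = 2.98e-05). Irf7, the transcription factor that amplifies type I interferon, had 1295, 1843 and 1306 in triple therapy, against 498, 463 and 412 in sham (1.68 ± 0.15, adjusted p = 1.15e-06). For Cxcl10, a chemokine that attracts T cells, the values were 637, 1078 and 209 in triple therapy, against 9, 2 and 1 in sham (7.07 ± 0.53, adjusted p = 1.47e-07), and it overlaps Art3 on the other strand. All triple therapy libraries exceeded all sham libraries for each of these genes.

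Gbp2 (ENSMUSG00000028270, chromosome 3, 142620602 to 142638008), a guanylate-binding GTPase, had 5677, 11094 and 3289 in triple therapy, against 1404, 1330 and 1275 in sham (2.15 ± 0.28, adjusted p = 4.69e-05). Irgm1, an immunity-related GTPase, had 2714, 4215 and 2009 in triple therapy, against 846, 672 and 739 in sham (1.92 ± 0.21, adjusted p = 7.14e-06). Gbp10 averaged 213 ± 150 in triple therapy and 3.7 ± 3.5 in sham (SD, n = 3 each; 5.64, adjusted p = 3.42e-05). Guanylate-binding and H2 genes have close copies, so counting may have divided reads between them.

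The triple therapy libraries differed among themselves in this group. Replicate 2 was the highest and replicate 3 the lowest in all 26 interferon-gamma genes, and over the 1080 genes that rose replicate 2 was the highest in 717 and replicate 3 the lowest in 726. Of 18 T cell genes that rose, replicate 2 was the highest in 11 and replicate 1 in 7. Ptprc, the pan-leukocyte gene for CD45, had 1631, 1876 and 954 in triple therapy, against 200, 188 and 185 in sham. How far leukocyte number contributes to these differences was not tested.

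**Figure D4:**
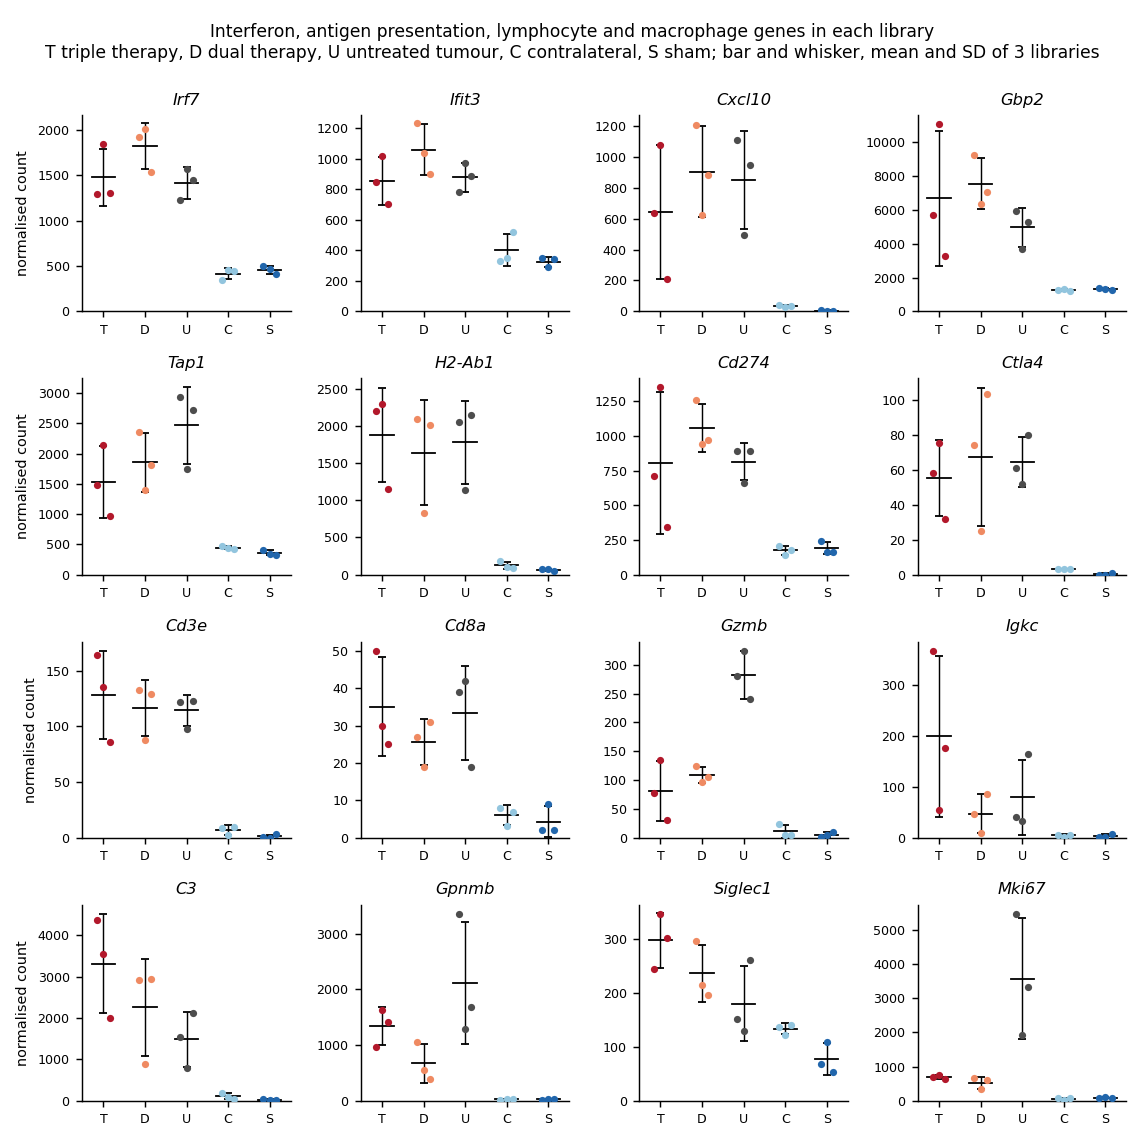
Normalised counts (vertical axes) of 16 interferon, antigen presentation, lymphocyte, complement, macrophage and proliferation genes in each of the 15 libraries, by group (T triple therapy, D dual therapy, U untreated tumour, C contralateral, S sham), with the mean (bar) and SD (whisker) of 3 libraries. T lies above S in every panel, and Mki67 stands higher in U than in T.

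Antigen presentation genes rose as well. Of 20 genes of MHC class I and the immunoproteasome 17 rose and 0 fell (median 1.04). Against sham, all 20 rose in untreated tumour (median 1.17) and 19 in dual therapy (median 1.21). H2-K1, a classical class I heavy chain, had 4207, 4851 and 3363 in triple therapy, against 1840, 1740 and 1376 in sham (1.32 ± 0.19, adjusted p = 1.04e-04). Tap1, a peptide transporter for class I loading, had 1479, 2142 and 967 in triple therapy, against 406, 339 and 329 in sham (2.02 ± 0.24, adjusted p = 1.46e-05), and it overlaps Psmb9 on the other strand. Nlrc5, the transactivator of class I genes, had 1129, 1805 and 651 in triple therapy, against 336, 184 and 211 in sham (2.22 ± 0.28, adjusted p = 3.37e-05). It was lower than in untreated tumour, at 5955, 3900 and 5434 (-2.19, adjusted p = 1.76e-05).

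MHC class II presents extracellular antigen to CD4 T cells. Of 10 genes 8 rose and 0 fell, with a median of 3.77. Against sham, 8 also rose in untreated tumour (median 4.03) and 8 in dual therapy (median 3.56). H2-Ab1 (ENSMUSG00000073421, chromosome 17, 34263209 to 34269418) had 2208, 2294 and 1154 in triple therapy, against 74, 73 and 43 in sham (4.85 ± 0.35, adjusted p = 1.47e-07). The invariant chain gene Cd74 had 2408, 2919 and 1407 in triple therapy, against 90, 78 and 54 in sham (4.87 ± 0.41, adjusted p = 4.51e-07). Ciita, the master regulator of the class, averaged 221 ± 125.5 in triple therapy and 28.7 ± 10.4 in sham (SD, n = 3 each; 2.81, adjusted p = 5.15e-05). Class II genes are also expressed by macrophages, dendritic cells and B cells, and genes of those lists rose here.

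Class II promoters carry a CCAAT box next to their other conserved elements. CCAAT, searched on both strands, was in all 7 class II promoters found (100.0%), in 12 of 17 of the class I list (70.6%) and in 4865 of all 12301 (39.5%). The example is H2-Eb1, which had 2035, 1860 and 1050 in triple therapy, against 58, 61 and 41 in sham (4.89 ± 0.39, adjusted p = 3.28e-07). Capitals mark its matches, 59 and 35 bases before the start.
H2-Eb1 (chr17:34305617-34305866, plus strand): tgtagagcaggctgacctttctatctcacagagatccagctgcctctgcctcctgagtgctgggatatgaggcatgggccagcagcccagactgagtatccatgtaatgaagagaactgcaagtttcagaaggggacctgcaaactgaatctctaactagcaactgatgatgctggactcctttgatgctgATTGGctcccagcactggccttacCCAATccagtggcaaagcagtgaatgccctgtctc

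Immune checkpoint genes rose in 14 of 18 cases, and 0 fell. Cd274 (ENSMUSG00000016496, chromosome 19, 29367455 to 29388095), which encodes PD-L1, the ligand of the receptor that the antibody blocks, had 709, 1355 and 344 in triple therapy, against 240, 166 and 164 in sham (1.88 ± 0.32, adjusted p = 6.55e-04). Pdcd1, which encodes PD-1, had 38, 46 and 12 in triple therapy, against 0, 0 and 2 in sham (4.32 ± 0.90, adjusted p = 0.00385). Ctla4, an inhibitory receptor of T cells, had 58, 75 and 32 in triple therapy, against 0, 0 and 1 in sham (5.39 ± 0.51, adjusted p = 1.65e-06). Cd276 and Cd200 did not pass (adjusted p = 0.0676 and 0.23).

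Lymphocytes are rare in the healthy brain. Of 22 T cell genes 18 rose and 0 fell, and of 17 cytotoxic and NK genes tested 15 rose and 0 fell. Of the 20 cytotoxic and NK genes in the table, 3 were not tested because of low values. That list summed to 50 to 76 in sham, so its members passed the filter mainly through other groups and could hardly be called lower. Over all genes tested that were under 10 in every sham library, 333 of 1518 rose. The CD3 chain gene Cd3e (ENSMUSG00000032093, chromosome 9, 44998740 to 45009613) had 164, 135 and 86 in triple therapy, against 1, 0 and 3 in sham (5.97 ± 0.50, adjusted p = 5.29e-07). Cd8a, a marker of cytotoxic T cells, had 50, 30 and 25 in triple therapy, against 2, 9 and 2 in sham (2.95 ± 0.53, adjusted p = 0.00122). The summed T cell list ran from 1510 to 2243 in triple therapy and from 749 to 765 in sham. Tcf7, a transcription factor gene of T cells and other cells, made up 497, 491 and 479 of the sham sums and was not called.

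Granzymes are the proteases with which cytotoxic cells kill. Gzmb had 78, 135 and 31 in triple therapy, against 2, 4 and 10 in sham (3.67 ± 0.57, adjusted p = 3.03e-04), and Gzma had 130, 214 and 75 in triple therapy, against 9, 2 and 9 in sham (4.27 ± 0.39, adjusted p = 1.07e-06). Both were lower than in untreated tumour, where Gzmb had 281, 324 and 241 (95% interval of the log2 difference -3.21 to -0.80, adjusted p = 0.0119, lost without triple therapy replicate 3) and Gzma 484, 484 and 493 (-1.92, adjusted p = 0.00104). Against untreated tumour 6 of the 17 cytotoxic genes fell and 0 rose, while of the 22 T cell genes 1 rose and 0 fell. Cd8a in untreated tumour was 39, 42 and 19. The NK receptor gene Ncr1 had 9, 12 and 16 in triple therapy, 45, 59 and 82 in untreated tumour and 3, 6 and 3 in sham.

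B cell and plasma cell genes rose in 6 of 11 cases tested, of 16 in the table. Igkc, the kappa light chain constant gene, had 367, 54 and 176 in triple therapy, against 2, 2 and 7 in sham (5.20 ± 0.78, adjusted p = 2.19e-04), and Jchain, which joins polymeric antibodies, had 124, 20 and 62 in triple therapy, against 3, 2 and 0 in sham. Here replicate 2, the highest library for interferon genes, was the lowest in all 6 genes that rose.

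Of 21 chemokines 12 rose and 0 fell, as did 12 of 19 chemokine receptors. Leaving out 1 triple therapy or sham library at a time, 8 to 9 receptors rose. Among the 12, Ccr3 had 7, 6 and 4 in triple therapy, against 0, 0 and 2 in sham. It lost its call under 13 of 17 alternatives. Ccl8, a monocyte attractant, had 279, 238 and 189 in triple therapy, against 19, 13 and 19 in sham (3.72 ± 0.28, adjusted p = 1.47e-07). Ccl22, which dendritic cells use to attract regulatory T cells, had 100, 110 and 30 in triple therapy, against 0, 0 and 1 in sham (5.80 ± 0.61, adjusted p = 4.53e-06). Cxcl12, a chemokine made by endothelium, had 8756, 9576 and 14323 in triple therapy, against 14305, 13024 and 14645 in sham, and was not called (-0.39, adjusted p = 0.272). Ccr2, the receptor of inflammatory monocytes, had 315, 349 and 153 in triple therapy, against 33, 26 and 19 in sham (3.29 ± 0.35, adjusted p = 5.36e-06).

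Monocyte genes rose in 11 of 12 cases. Genes of tumour-associated macrophages rose in 7 of 14. Gpnmb (ENSMUSG00000029816, chromosome 6, 49036615 to 49070929), a glycoprotein of lipid-laden macrophages, had 973, 1634 and 1418 in triple therapy, against 13, 28 and 30 in sham (5.82 ± 0.38, adjusted p = 3.50e-08). Arg1, arginase of alternatively activated macrophages, had 201, 336 and 110 in triple therapy, against 5, 6 and 3 in sham (5.15 ± 0.39, adjusted p = 1.47e-07). Itgax, a dendritic cell and macrophage integrin, had 164, 171 and 104 in triple therapy, against 2, 2 and 3 in sham (5.45 ± 0.43, adjusted p = 2.25e-07).

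Microglia and perivascular macrophages are resident in the brain. Of 11 microglial genes tested 2 rose, Csf1r and Cx3cr1, which other macrophages also express, and the call of Cx3cr1 was lost without triple therapy replicate 1 or sham replicate 3. The homeostatic microglial gene P2ry12 had 129, 114 and 119 in triple therapy, against 153, 136 and 151 in sham, and was not called (adjusted p = 0.425). Of 10 perivascular macrophage genes 1 rose: Siglec1, a sialic acid receptor that interferon induces, with 245, 347 and 302 in triple therapy, against 69, 110 and 53 in sham (1.98 ± 0.27, adjusted p = 6.32e-05). Mrc1, the mannose receptor gene, averaged 2580.7 ± 471.7 in triple therapy and 2202 ± 113 in sham (SD, n = 3 each) and was not called. It was higher than in untreated tumour, at 1277, 948 and 1052 (1.23, adjusted p = 7.43e-06). Of 4 neutrophil genes tested 1 rose, Csf3r (1.63, adjusted p = 0.0188, lost without triple therapy replicates 1 or 2 or sham replicates 2 or 3), and 0 of 7 erythrocyte genes were called in limma or had an unadjusted p below 0.05. Of 11 dendritic cell genes 4 rose and 0 fell, among them Batf3, a transcription factor of cross-presenting cells (4.15, adjusted p = 5.34e-04).

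Complement tags targets for phagocytosis. Of 18 genes 12 rose and 0 fell (median 1.43). C3 (ENSMUSG00000024164, chromosome 17, 57203970 to 57228136), its central component, had 4373, 3558 and 2009 in triple therapy, against 33, 20 and 23 in sham (6.93 ± 0.46, adjusted p = 3.50e-08). C4b, which forms the C3 convertase, had 1503, 2152 and 1278 in triple therapy, against 278, 240 and 315 in sham (2.54 ± 0.22, adjusted p = 7.24e-07). C1qa had 1237, 1303 and 1069 in triple therapy, against 406, 417 and 342 in sham (1.63 ± 0.18, adjusted p = 6.95e-06).

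Genes of dividing cells stayed above sham and below untreated tumour. Of 25 mitosis genes 18 rose against sham, with a median of 1.93, and all 25 fell against untreated tumour. Of 24 DNA replication genes tested 9 rose against sham and 23 fell against untreated tumour. Top2a (ENSMUSG00000020914, chromosome 11, 98992943 to 99024189), a topoisomerase of dividing cells, had 544, 634 and 480 in triple therapy, 4153, 1999 and 2791 in untreated tumour and 58, 58 and 35 in sham (triple therapy minus sham 3.46 ± 0.33, adjusted p = 1.50e-06). Mki67, the gene for the proliferation antigen Ki-67, had 703, 761 and 649 in triple therapy, 5465, 1933 and 3323 in untreated tumour and 88, 102 and 94 in sham (2.88 ± 0.33, adjusted p = 1.21e-05). For both, no library of one group reached another group's range. Cdk1, the mitotic kinase, had 17, 43 and 34 in triple therapy, against 9, 7 and 1 in sham (2.48 ± 0.54, adjusted p = 0.00514). Pcna, a replication clamp that repair also uses, averaged 403.7 ± 44.8 in triple therapy and 389.7 ± 8.3 in sham and was not called.

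Promoters of mitotic genes are known for CCAAT boxes and for the cell cycle genes homology region. CCAAT was in 18 of the 21 mitosis promoters found (85.7%) and TTTGAA, the core of that region, in 7 (33.3%), on either strand. Of all 12301 promoters 39.5% held the first and 13.1% the second. Top2a and Cdk1 are shown because each holds several of both. Capitals mark both motifs.
Top2a (chr11:99024190-99024439, minus strand): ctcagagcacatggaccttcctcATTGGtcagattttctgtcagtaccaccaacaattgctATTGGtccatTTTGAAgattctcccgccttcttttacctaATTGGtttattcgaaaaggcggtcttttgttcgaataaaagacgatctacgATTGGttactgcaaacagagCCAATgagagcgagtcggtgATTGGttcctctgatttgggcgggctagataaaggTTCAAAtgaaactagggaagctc
Cdk1 (chr10:69352913-69353162, minus strand): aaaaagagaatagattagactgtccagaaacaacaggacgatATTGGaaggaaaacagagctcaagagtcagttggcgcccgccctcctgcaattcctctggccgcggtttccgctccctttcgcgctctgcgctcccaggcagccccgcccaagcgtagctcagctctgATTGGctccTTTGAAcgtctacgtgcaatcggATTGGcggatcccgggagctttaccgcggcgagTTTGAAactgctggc
Top2a holds 6 CCAAT and 2 TTTGAA matches, and Cdk1 holds 3 and 2.

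Which cells divide is not resolved in bulk RNA. Beside these genes, 4 genes picked earlier from the untreated tumour of this study as near 0 elsewhere were present in triple therapy, and their direction was fixed by that choice. H19, an imprinted RNA of fetal tissue and many tumours, had 568, 870 and 814 in triple therapy, 6530, 5892 and 2938 in untreated tumour and 16, 7 and 6 in sham. Pet2 had 65, 98 and 92 in triple therapy and 1447, 842 and 801 in untreated tumour and was listed at 0 in all 3 sham libraries. The summed list ran from 728 to 1125 in triple therapy, from 4949 to 9869 in untreated tumour and from 13 to 20 in sham. The part of tumour cells in the proliferation and matrix differences was not tested. In the list of 16 glial progenitor and glioma genes 2 rose, 1 fell and 13 were not called, with a median of 0.05. Those that rose were Cd44 and Met, surface receptors of glioma and other cells (2.87 and 2.16, adjusted p = 1.50e-06 and 0.0014), and the 1 that fell was Sox11, a transcription factor of neural progenitors (-0.92, adjusted p = 0.0152, lost without triple therapy replicate 3 or sham replicate 3). Olig2, a factor of oligodendrocyte lineage and glioma cells, had 89, 159 and 115 in triple therapy, against 71, 82 and 111 in sham.

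Neuronal genes fell. Of 15 members 13 fell and 0 rose, with a median of -1.18. Map2 (ENSMUSG00000015222, chromosome 1, 66175313 to 66442583), a dendritic microtubule protein, had 5211, 5331 and 4024 in triple therapy, against 8968, 9178 and 12054 in sham (-1.05 ± 0.19, adjusted p = 9.72e-04). Gad1, which makes GABA, had 338, 391 and 238 in triple therapy, against 588, 687 and 854 in sham (-1.15 ± 0.26, adjusted p = 0.00745, lost without triple therapy replicate 3 or sham replicate 3). Arc, a synaptic gene induced by activity, had 199, 145 and 155 in triple therapy, against 448, 711 and 848 in sham (-1.97 ± 0.24, adjusted p = 2.27e-05). It was the 1 gene called of 14 immediate early genes. All triple therapy libraries lay below all sham libraries in these 3 genes.

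The neuronal count rested on few libraries, with 5 genes called without sham replicate 3 and 6 without triple therapy replicate 3, and 8 with the endothelial shift. Summed neuronal markers ran from 13536 to 19107 in triple therapy, from 3883 to 6779 in untreated tumour, from 19455 to 23318 in contralateral vessels and from 30763 to 42050 in sham. Astrocyte markers summed to 52255 to 59774 in triple therapy and 67490 to 93439 in sham, and oligodendrocyte markers to 14700 to 25005 in triple therapy and 28778 to 36428 in sham, with 0 of 15 and 0 of 12 genes called in limma and 5 and 4 at an unadjusted p below 0.05. The part of attached brain tissue in these differences was not tested. Against untreated tumour all 15 neuronal genes rose. Gfap, an astrocyte filament gene raised in reactive glia, had 1792, 2905 and 1694 in triple therapy, against 903, 903 and 1255 in sham, without passing the test (1.04, adjusted p = 0.0684).

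In the metabolic lists 8.3% of hypoxia and glycolysis, 0.0% of cholesterol synthesis and 9.1% of glucocorticoid-responsive genes rose, and 0 fell. Of all genes tested 5.49% rose and 4.24% fell, so these counts are near the shares of all genes. Of 24 hypoxia and glycolysis genes 2 rose, Hk2, a hexokinase (2.50 ± 0.30, adjusted p = 1.64e-05), and Car12, a carbonic anhydrase (1.14 ± 0.25, adjusted p = 0.00578). In the cholesterol synthesis list 0 of 19 were called in limma, against 2 at an unadjusted p below 0.05, with a median of -0.18. Among 11 glucocorticoid-responsive genes 1 rose, Fkbp5, a chaperone of the steroid receptor, with 1026, 1116 and 862 in triple therapy, against 717, 456 and 347 in sham (1.04 ± 0.29, adjusted p = 0.0279, lost under 6 of 17 alternatives). Ttr, a choroid plexus gene, varied widely within triple therapy, with 42830, 25170 and 76214, against 21779, 23566 and 21724 in sham (adjusted p = 0.157). The water channel gene Aqp1, also of choroid plexus, rose with the same library order (1.52, adjusted p = 0.00709, lost without triple therapy replicate 3). Of 8 ependymal and choroid genes tested, it was the 1 that was called. Of 13 fibroblast genes tested 1 rose, Col3a1, and 0 fell.

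**Figure D5:**
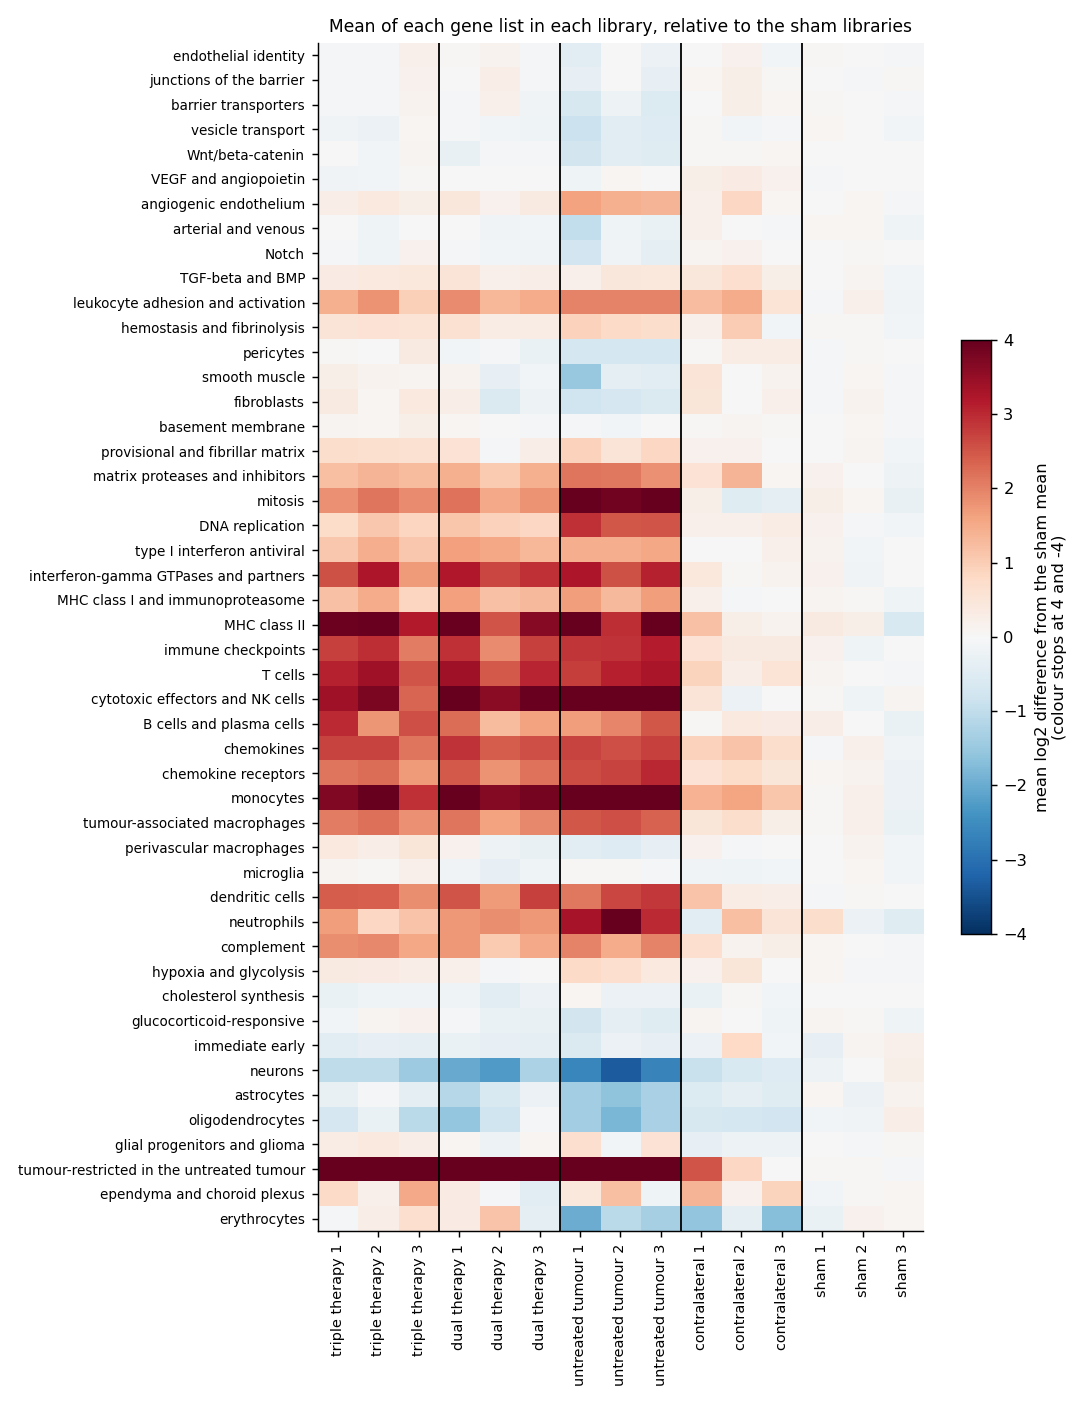
Mean log2 difference of each of 48 gene lists (rows) from its mean over the sham libraries, in each of the 15 libraries (columns; triple therapy at the left, sham at the right); red is higher and blue lower, with colour stopping at 4 and -4. Triple therapy lies at -0.07 to 0.19 in endothelial identity, at 0.96 to 1.80 in leukocyte adhesion, at 0.04 to 0.22 in microglia and at 2.92 to 4.09 in monocytes, and it is less red than untreated tumour in mitosis, where its libraries lie at 1.82 to 2.14 and those of untreated tumour at 3.87 to 4.86.

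Set against dual therapy, which lacked the PD-1 antibody, triple therapy differed in few genes. In that comparison 171 genes were called (0.869%), 103 higher (0.524%) and 68 lower (0.346%), and 2850 had an unadjusted p below 0.05. The count was 0 without triple therapy replicate 1 (2167 at an unadjusted p below 0.05), without dual therapy replicate 2 (2278) and with the endothelial shift (2091). In limma 0 of 26 angiogenic, 0 of 28 transporter, 0 of 22 T cell and 0 of 17 cytotoxic genes were called between them, and 1, 3, 0 and 4 had an unadjusted p below 0.05. Some other lists had more at that level, higher in triple therapy with 0 lower. These were 10 of 15 neuron, 7 of 13 fibroblast and 6 of 8 ependymal and choroid genes. So were 6 of 15 pericyte and 8 of 23 provisional and fibrillar matrix genes. Of these lists only neurons had calls, 2 in number. Over all 48 lists 4 members were called lower in triple therapy and 4 higher. Those lower were the interferon-induced GTPase gene Gbp9 (-0.50, adjusted p = 0.0433), the chemokine receptor gene Ccr3 (-3.15, adjusted p = 0.0359) and the immediate early genes Jun and Dusp1 (-0.66 and -1.06, adjusted p = 0.0274 and 0.0416). Those higher were Mrc1, Fkbp5, Map2 and Slc17a7 (0.67, 1.39, 0.89 and 1.01). In the type I interferon list 0 of 28 were called, and 7 were lower at an unadjusted p below 0.05. Cd274 had 709, 1355 and 344 in triple therapy, against 1258, 945 and 974 in dual therapy (-0.60, adjusted p = 0.402), and Cd8a had 50, 30 and 25 in triple therapy, against 27, 19 and 31 in dual therapy, with a 95% interval of -0.72 to 1.52 for the log2 difference. Such intervals leave room for differences in either direction.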

How the data were processed

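Total RNA of brain microvessels was sequenced after stranded library preparation, per the labels' protocols, in 15 libraries of 5 groups, each library a pool of 3 mice. Reads were processed with STAR 2.4.0a, featureCounts 1.4.5-p1 and DESeq2 on GRCm38 (mm10), per the submitters' processing notes. The sources used here do not give the strand setting. The deposited table holds normalised counts that the authors rounded to whole numbers, a score rather than raw counts, so no count model was used. Depth was estimated from the steps between low values, at 0.656 to 1.86 units per read where a pattern could be fitted (R2 of at least 0.74 in the sham libraries and in triple therapy replicates 2 and 3, and 0.001 in replicate 1). In simulations 30 of 30 random step sizes and 4 of 7 round ones were recovered to within 0.02, so these depths are approximate.

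Values were tested as log2(value + 1) with limma 3.58.1 (R 4.3.3, variance trend, 1 mean per group, all 15 libraries) for genes with a value of at least 10 in at least 3 libraries. P-values were adjusted by the Benjamini-Hochberg method over all 19668 genes, and calls required an adjusted p below 0.05. The fit had 10 residual and 8.26 prior degrees of freedom, and the 95% intervals used both. A log2 difference on this scale understates the change of low genes, and no fold is given for genes at 0 in all sham libraries. The method was tested on simulated data. Tables and figures were made with Python 3.11.15, pandas 2.3.3, numpy 2.4.6, scipy 1.17.1 and matplotlib 3.10.9.

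The members and the 48 gene lists (813 of 818 entries found in the table) were chosen with earlier results of these data known. Genes named were up to 20 higher and 20 lower with the largest called differences, an established symbol, groups that did not overlap and a higher mean of 50 or more, up to 6 called and 3 uncalled members per list, a fixed set of vessel, checkpoint and proliferation genes, and up to 10 genes with the smallest adjusted p against dual therapy. Genes named outside this rule, among them those that a list's few calls consist of, were chosen after their values were seen. Alternatives were another pseudocount, other filters, fits of the compared libraries alone, no variance trend, quantile and endothelial scaling, library weights, a replicate block and leaving out libraries.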

Additional observations from a re-analysis of the deposited data

Results flagged for a closer look

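Some genes stood at different distances from sham in triple therapy and in dual therapy, as tested by the difference between the 2 treated groups in limma over all genes, which showed 171 calls. The 10 with the smallest adjusted p, and 8 others named in the text, are given here as log2 differences of triple therapy minus dual therapy. Rab3a, a synaptic vesicle GTPase, had 389, 369 and 409 in triple therapy and 217, 171 and 155 in dual therapy, with 539, 577 and 721 in sham (1.11 ± 0.15, adjusted p = 0.00897). Sphkap had 409, 375 and 279 in triple therapy and 109, 97 and 163 in dual therapy (1.54 ± 0.24, adjusted p = 0.00976). The differences were 0.89 for Itgb8, 0.82 for Atp1b1, 0.83 for Tenm4, 1.20 for Gpr158, 1.16 for Lgi1 and 0.93 for Nsg2, all genes that neurons or glia express. Neuronal markers summed to 13536 to 19107 in triple therapy and to 8570 to 15066 in dual therapy, and their part in these differences was not tested. Lower in triple therapy were CAAA01194877.1 (-1.13) and the splicing-related gene Luc7l3 (-0.67).

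Map2 (0.89, adjusted p = 0.0318) and Slc17a7, a vesicular glutamate transporter gene (1.01, adjusted p = 0.0397), were higher in triple therapy. So were Fkbp5, with 1026, 1116 and 862 in triple therapy and 542, 332 and 305 in dual therapy (1.39, adjusted p = 0.0326), and Mrc1, with 2595, 2102 and 3045 in triple therapy and 1974, 1422 and 1483 in dual therapy (0.67, adjusted p = 0.0365). Lower in triple therapy were Gbp9, with 2326, 2899 and 2095 in triple therapy and 3470, 3457 and 3324 in dual therapy (-0.50), Ccr3, with 7, 6 and 4 in triple therapy and 35, 71 and 75 in dual therapy (-3.15), Jun, with 1234, 1336 and 1701 in triple therapy and 2142, 2258 and 2275 in dual therapy (-0.66), and Dusp1, with 320, 412 and 443 in triple therapy and 725, 1101 and 664 in dual therapy (-1.06). Each of these 18 genes lost its call under some of the 17 alternatives: Rab3a and Tenm4 were called under 13, Map2 and Slc17a7 under 6, and Gbp9 under 5.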

How the results depend on the processing

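Against sham, the count of 1913 called genes was 3197 with only the 6 libraries compared, 3224 with quality weights, 1232 with endothelial identity scaling, and 1103 (without sham replicate 3) to 1551 (without sham replicate 1) leaving out 1 library at a time. Fewer genes rose than fell in the 6 compared libraries without a block (1497 and 1700) and with it (1408 and 1608), while 789 rose and 443 fell with endothelial identity scaling, and 917 and 539 with no variance trend. The count was 1456 to 2454 under the other alternatives without a block. The replicate numbers did not pair the libraries: deviations of same-numbered triple therapy and sham libraries correlated at -0.012, -0.038 and 0.016. With the replicate block the count was 1958 in 15 libraries and 3016 in the 6 compared. Against dual therapy, the 171 calls became 31 with only the 6 libraries compared, 14 with no variance trend, 327 with quality weights, 0 with endothelial identity scaling (2091 at an unadjusted p below 0.05), 0 with the replicate block in 6 libraries (2244), 90 without untreated replicate 2 and dual therapy replicate 2, and 0 to 276 leaving out 1 library, with 100 and 29 without triple therapy replicates 2 and 3. Against untreated tumour, the 6340 calls ran from 4319 to 7486 over all alternatives. Untreated tumour against sham gave 4577 genes higher and 4590 lower, and 5640 and 2960 with endothelial identity scaling. That comparison and dual therapy against sham were run under the same alternatives after the data were seen, and their total counts moved by less than 1.5 times. Of the 140 genes named, 96 were called against sham, and 77 of these kept the call under every alternative run for them. The other 19 lost it under 1 or more, and 15 of the 44 not called passed under 1 or more. Where the main fit or the alternative called a gene, 0 turned their direction. Genes called in neither could change sign: over the alternatives Pecam1 ran from -0.09 to 0.08 and Slc2a1 from -0.10 to 0.12. Depth limits the low genes, since 1 read was worth up to 1.86 units.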

Other observations

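These genes were chosen after their values were seen. Genes of striatal projection neurons were among the largest decreases, with 9 of 13 called lower than sham. Of all genes tested 4.24% fell, and in the general neuron list 13 of 15 did (86.7%), so the fall was not particular to striatal genes. Pde10a, a phosphodiesterase, had 462, 456 and 491 in triple therapy, against 1265, 1308 and 2126 in sham (-1.69 ± 0.19, adjusted p = 1.14e-05). Penk, the enkephalin precursor, had 297, 266 and 204 in triple therapy, against 590, 614 and 892 in sham (-1.44 ± 0.28, adjusted p = 0.00219). Drd1 fell too (-1.23, adjusted p = 0.00525), while Adora2a had 164, 142 and 174 in triple therapy, against 157, 164 and 206 in sham, and was not called. The labels do not state which brain region the sham vessels came from, so region and treatment cannot be told apart.

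In a set of 10 cartilage matrix genes, made up of collagens with Acan, Matn1 and Matn4, 7 were higher than in sham. Acan was among these 7, while 2 genes, Col27a1 and Matn4, were not called and 1, Matn1, was not tested. Of all genes tested 5.49% rose. Col2a1 had 225, 442 and 427 in triple therapy, against 14, 9 and 6 in sham (5.11 ± 0.34, adjusted p = 3.50e-08), and Col9a1 had 80, 154 and 152 in triple therapy, against 5, 2 and 3 in sham (4.90 ± 0.60, adjusted p = 2.47e-05). Col2a1 did not differ detectably from untreated tumour (0.16, adjusted p = 0.758), while Col9a2 and Col11a2 were lower in triple therapy than in it (-1.77 and -3.07). Serpina3n, an acute-phase protease inhibitor of reactive astrocytes, had 638, 1028 and 644 in triple therapy, against 39, 28 and 43 in sham (4.34 ± 0.47, adjusted p = 6.60e-06), and it has close copies whose reads may be shared.

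Of the largest decreases among genes with an established symbol, groups that did not overlap and a higher mean of 50 or more, that of Mir6236 came first, with 164, 68 and 529 in triple therapy, against 1328, 3219 and 6368 in sham (-4.05 ± 0.97, adjusted p = 0.0101, lost under 3 of 17 alternatives), followed by Lars2, with 312, 267 and 592 in triple therapy, against 1217, 2652 and 6782 in sham (-2.93 ± 0.75, adjusted p = 0.0162, lost under 5 of 17). Both varied several-fold within sham, and Mir6236 did within triple therapy too. Both were highest in untreated tumour replicate 1 (10545 for Mir6236 and 7009 for Lars2) and lowest in triple therapy replicate 2 (68 and 267). Gm26917 had 117875, 224810 and 149464 in triple therapy, against 69675, 77803 and 58695 in sham (1.21, adjusted p = 0.00525). Mir6236, Lars2 and Gm26917 may collect reads of ribosomal RNA-like sequence, and the part of such reads was not tested.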
